A study of Mus musculus with 18 samples.

Results

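Secondary (specific) and gelatinase granule genes were followed across sorted bone marrow monocytes and neutrophils of mice labelled Zeb2-sufficient or Zeb2-deficient. They are the 10 genes Ltf, Camp, Ngp, Lcn2, Chil1, Olfm4, Mmp8, Cd177, Itgb2l and Mmp9, chosen by symbol from the 19938 genes that the array's probe sets name, and all 10 were among the 13387 genes tested. In monocytes labelled Zeb2-deficient, 9 of the 10 were higher than in controls, against 5.11% of all genes tested, and 8 of them rose by 5.26-fold to 26.5-fold. In neutrophils, where each of these genes lay well above its level in control monocytes, none of the 10 passed the test. Only 0.12% of all genes tested passed there.

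Neutrophils build their granules in sequence while they mature in the marrow. Primary (azurophil) granules form first, in promyelocytes, and hold myeloperoxidase and serine proteases. Secondary granules form next, in myelocytes and metamyelocytes, and gelatinase granules last, in band cells. Proteins are sorted into granules largely by when their genes are expressed, and the transcription factor C/EBP epsilon, encoded by Cebpe, is needed for the secondary granule genes. Ly-6C(hi) monocytes come from the same granulocyte-monocyte progenitors and do not form secondary granules. Zeb2 encodes a zinc-finger repressor that binds E-boxes.

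Among the 10 genes, Ltf encodes lactoferrin, which binds iron, Camp the precursor of the antimicrobial peptide cathelicidin, Ngp a cystatin-like neutrophilic granule protein, and Lcn2 lipocalin 2, which captures bacterial siderophores. Chil1 encodes a chitinase-like protein that binds chitin without cutting it, and Olfm4 olfactomedin 4, which is found in the secondary granules of a subset of neutrophils. Mmp8 encodes neutrophil collagenase and Mmp9 gelatinase B, the protein that gives gelatinase granules their name. Cd177 encodes a membrane protein of secondary granules and the neutrophil surface, and Itgb2l an integrin beta-like protein of mouse granulocytes.

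The 18 Affymetrix Mouse Gene 1.0 ST arrays held 9 samples of Ly-6C(hi) monocytes and 9 samples of neutrophils, sorted by flow cytometry from C57BL/6 bone marrow. In each cell type, 4 arrays came from Zeb2(fl/fl) controls given poly(I:C), 4 from poly(I:C)-treated Zeb2(fl/fl);Mx1-Cre(tg) mice labelled deficient, and 1 from an untreated Zeb2(fl/fl) control. Poly(I:C), synthetic double-stranded RNA used to trigger an interferon response, was injected intraperitoneally at 150 µg on 2 occasions within 48 h, and marrow was collected 3 weeks later. All groups carry the floxed alleles, and only the deficient groups carry Cre, so the presence of Cre and the loss of Zeb2 are confounded and cannot be told apart. The Mx1 promoter responds to interferon in many cell types, so other cells of these mice can lack Zeb2 too. Age, sort gates and whether animals were pooled are not stated in the labels, and nothing says that each array stands for an animal of its own, so p-values measure only how these samples vary, which may be technical variation. In sorted bulk samples, more cells of a type and more RNA per cell cannot be told apart.

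Values are log2 intensities, and a difference of 1 is a 2-fold difference. The 40th percentile of an array, used here as the edge of low signal, lay between 4.28 and 4.50. Zeb2 itself was read at 10.08, 9.88, 9.88 and 9.86 in control monocytes and at 9.75, 9.84, 9.46 and 8.74 in monocytes labelled deficient, a change of -0.48 ± 0.24 (SE) that did not pass the test. In neutrophils the change was 0.49 ± 0.24 (SE), against the direction of the label, and it did not pass either. The Zeb2 probe set covers the transcript as a whole and the labels do not name the deleted exons, so these levels do not check the deletion. The sort was checked on marker lists. The mean over 11 Ly-6C(hi) monocyte markers was 9.93 to 10.11 on control monocyte arrays and 5.04 to 5.21 on control neutrophil arrays, and the mean over 11 neutrophil markers was 6.01 to 6.85 and 10.79 to 10.90.

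Within each cell type the poly(I:C) arrays also fell into a pair of sets that the labels do not mention. Deviations from the group means ran together among control 1 and 2 and deficient 1 and 2, called set A here, and among control 4 and 5 and deficient 3 and 4, called set B. Each set holds 2 arrays of each genotype in each cell type, so every comparison could be repeated within a set. The untreated arrays were not assigned to a set, since a single array has no deviation from its group mean.

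The bases before the start sites are shown first, because C/EBP factors are known regulators of this group. The part of any motif in the changes was not tested. RefSeq promoters (GRCm38.p6, 250 bases before to 50 after the annotated start) were held for 9 of the 10 genes; Mmp9 had no entry. The motif TTNNGNAA, a form of the C/EBP site, was searched on both strands and was found in 8 of 9 members' promoters, against 40.7% of 27025 gene promoters. CACCTG, the E-box of Zeb factors, was found in 1 of 9, against 20% of all promoters. AGGAAG, the core of PU.1 sites, was found in 7 of 9, against 35.1%. Matches to different motifs may share bases, and a match describes letters, not a bound site. The 250 bases before the start follow for 5 members, 5′ to 3′ in the direction of transcription, with matches to TTNNGNAA and CACCTG in capitals. Ltf at chr9:111019042-111019291 (plus strand) holds TTAAGGAA, TTGGGCAA and the only CACCTG. Ngp at chr9:110419558-110419807 (plus strand) holds the most C/EBP-type matches, 3. Lcn2 at chr2:32387740-32387989 (minus strand) holds 1. Mmp8 at chr9:7558179-7558428 (plus strand) holds 2 and is shown because its monocyte level moved least among the genes that passed. Camp at chr9:109849457-109849706 (minus strand) is the only one of the 9 without a match.
Ltf: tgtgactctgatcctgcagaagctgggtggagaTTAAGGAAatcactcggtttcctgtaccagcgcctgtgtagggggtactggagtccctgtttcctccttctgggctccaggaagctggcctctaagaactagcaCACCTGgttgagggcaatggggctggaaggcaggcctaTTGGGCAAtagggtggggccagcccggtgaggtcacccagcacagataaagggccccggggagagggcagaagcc
Ngp: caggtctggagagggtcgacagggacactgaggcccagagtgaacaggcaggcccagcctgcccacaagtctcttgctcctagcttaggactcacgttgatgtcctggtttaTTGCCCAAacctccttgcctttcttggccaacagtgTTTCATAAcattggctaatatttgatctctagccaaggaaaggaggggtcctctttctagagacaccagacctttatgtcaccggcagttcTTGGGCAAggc
Lcn2: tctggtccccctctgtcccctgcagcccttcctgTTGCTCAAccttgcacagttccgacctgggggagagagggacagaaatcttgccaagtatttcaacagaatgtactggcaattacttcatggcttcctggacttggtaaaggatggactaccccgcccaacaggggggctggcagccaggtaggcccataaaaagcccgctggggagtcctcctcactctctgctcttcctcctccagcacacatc
Mmp8: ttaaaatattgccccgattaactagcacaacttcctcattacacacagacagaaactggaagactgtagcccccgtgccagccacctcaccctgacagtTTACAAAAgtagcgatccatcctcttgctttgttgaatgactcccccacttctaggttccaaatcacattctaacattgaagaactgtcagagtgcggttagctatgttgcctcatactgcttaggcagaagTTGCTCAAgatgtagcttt
Camp: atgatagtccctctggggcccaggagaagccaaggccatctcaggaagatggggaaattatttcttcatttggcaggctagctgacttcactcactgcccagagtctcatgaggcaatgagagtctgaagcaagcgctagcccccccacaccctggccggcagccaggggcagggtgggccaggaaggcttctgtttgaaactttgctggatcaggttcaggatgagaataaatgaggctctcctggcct

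In control cells, all 10 genes were called lower in monocytes than in neutrophils, as were 28.7% of all genes tested. The differences ran from Mmp9 (-7.51 ± 0.26 SE, adjusted p = 1.75e-13, limma), then Chil1, Ltf (-5.54), Olfm4 (-5.40) and Itgb2l (-5.05) to Mmp8 (-2.59) and Cd177 (-2.01 ± 0.22 SE, adjusted p = 3.72e-07). Lcn2, Ngp and Camp lay between, at -4.00, -3.12 and -3.06. Control monocytes were not uniformly low. Camp, Ngp, Lcn2, Mmp8 and Cd177 each lay above 94.8% or more of all genes there, while Chil1, Olfm4 and Mmp9 lay above 51.9%, 45% and 38.7%. On 1 of 4 control monocyte arrays Mmp9 and Olfm4 were at or below the 40th percentile, so their differences are bounded by the background and the folds are lower bounds. In control neutrophils Camp, Lcn2, Ltf, Ngp and Mmp8 lay above at least 99.9% of genes, and the highest value of any array was 13.1 to 13.5, so these 5 genes lie close to the upper end of the scale. Whether their signals are compressed there was not tested, and log2 differences that involve them in neutrophils may understate differences in RNA.

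**Figure D1:**
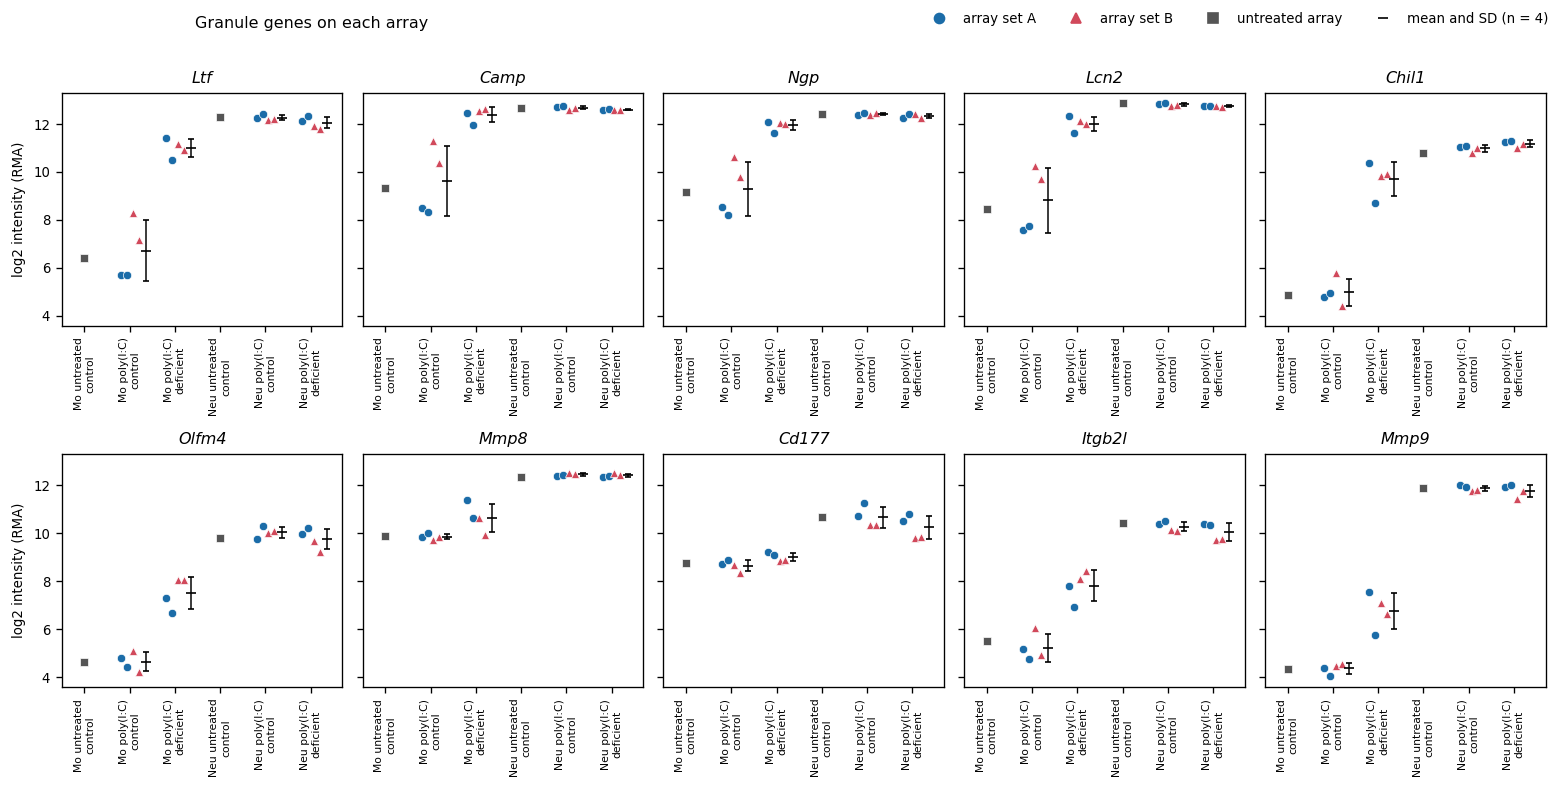
Log2 intensity (vertical axis) of each of the 10 granule genes on each of the 18 arrays, by group (Mo, Ly-6C(hi) monocytes; Neu, neutrophils). Circles are array set A, triangles set B and squares the single untreated arrays, and bars show the mean and SD of 4 arrays. In 8 of 10 panels every deficient monocyte array lies above every control monocyte array, and in the control monocytes of Ltf, Camp, Ngp and Lcn2 both set B arrays lie above both set A arrays.

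In monocytes labelled Zeb2-deficient, 9 of the 10 genes were called higher than in poly(I:C) controls, against 5.11% of all genes tested, and the arrays did not overlap for 8 of 10, against 6.12%. The median change over the 10 was 2.71, beside -0.0337 over all genes tested. The errors of these changes come from 1 variance shared by all groups, to which the neutrophil arrays add. Camp had an SD of 1.46 in control monocytes and 0.07 in control neutrophils. In a fit of the monocyte groups alone its SE was 0.56, against 0.44 with all arrays. For Cd177 the SE was lower in that fit, at 0.14 against 0.22. The rises spanned proteins of both granule types, but were far from equal. By signal Chil1 and Ltf rose most, Mmp8 least, and Cd177 did not pass. Camp, Lcn2 and Ngp reached means of 12.39, 12.01 and 11.95 in deficient monocytes, above at least 99.8% of genes. Whether their signals are compressed there was not tested. Mmp9 and Olfm4 began at the edge of low signal. The order of the rises is therefore one of signal and may not be that of the RNA.

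Chil1 read 4.77, 4.95, 5.78 and 4.43 on the control monocyte arrays (1, 2, 4 and 5) and 10.36, 8.71, 9.84 and 9.93 on the deficient arrays (1 to 4). All deficient arrays were far above all controls. The change was 4.73 ± 0.28 (SE), a 26.5-fold rise with adjusted p = 1.05e-08. Chil1 started near the low end of the array, with a control mean of 4.98, though no control array was at or below its 40th percentile. Ltf read 5.70, 5.71, 8.30 and 7.17 in controls and 11.40, 10.50, 11.18 and 10.92 in deficient monocytes. The lactoferrin arrays did not overlap either, although control 4 stood well above controls 1 and 2. Its change was 4.28 ± 0.40 (SE), or 19.5-fold, with adjusted p = 2.32e-06. In a fit blocked on the replicate number, the adjusted p was 0.0125 for Ltf and 0.00298 for Chil1. The monocyte groups alone gave 0.00165 for Ltf and 0.00011 for Chil1.

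Lcn2 read 7.56, 7.76, 10.26 and 9.69 in controls and 12.32, 11.61, 12.13 and 11.99 in deficient monocytes, a change of 3.19 ± 0.41 (SE, 9.16-fold, adjusted p = 7.89e-05). Camp read 8.48, 8.32, 11.31 and 10.36 in controls and 12.46, 11.94, 12.55 and 12.63 in deficient monocytes, a change of 2.77 ± 0.44 (SE, 6.83-fold, adjusted p = 0.00051). For both genes controls 4 and 5 were the high controls, and still lay under every deficient array. Ngp showed the same order, with controls at 8.55, 8.19, 10.64 and 9.80 and deficient arrays at 12.07, 11.64, 12.06 and 12.01. Its change was 2.65 ± 0.34 (SE, 6.28-fold, adjusted p = 7.89e-05). Under the replicate block the adjusted p-values were larger, at 0.0274 for Lcn2, 0.0329 for Camp and 0.0261 for Ngp.

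Olfm4 and Itgb2l started near the low end of the array. Olfm4 read 4.81, 4.43, 5.10 and 4.23 in controls and 7.29, 6.68, 8.06 and 8.06 in deficient monocytes, a change of 2.88 ± 0.28 (SE, at least 7.35-fold, adjusted p = 3.96e-06). Itgb2l read 5.18, 4.74, 6.04 and 4.92 in controls and 7.81, 6.91, 8.11 and 8.42 in deficient monocytes, a change of 2.59 ± 0.29 (SE, 6.02-fold, adjusted p = 2.10e-05). In both, the deficient arrays of set B were the highest. Mmp9, the gelatinase B gene, read 4.38, 4.03, 4.48 and 4.56 in controls and 7.55, 5.77, 7.10 and 6.62 in deficient monocytes. None of these arrays overlapped, and the change was 2.39 ± 0.26 (SE, at least 5.26-fold, adjusted p = 1.44e-05). Under the replicate block the adjusted p-values were 0.00249 for Olfm4, 0.00244 for Itgb2l and 0.0111 for Mmp9.

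Mmp8, the neutrophil collagenase gene, rose less. It read 9.84, 10.01, 9.73 and 9.86 in controls and 11.38, 10.64, 10.64 and 9.92 in deficient monocytes. Deficient array 4 lay inside the range of the controls and deficient array 1 well above it. The change was 0.78 ± 0.19 (SE, 1.72-fold, adjusted p = 0.0151), and it no longer passed with the replicate number as a block (adjusted p = 0.176), in a fit of the monocyte groups alone (0.106) or in set B alone (0.102). Cd177 read 8.74, 8.87, 8.68 and 8.33 in controls and 9.21, 9.10, 8.85 and 8.87 in deficient monocytes, where the lowest deficient array lay within the controls' range. Its change was 0.35 ± 0.22 (SE, adjusted p = 0.413), with a 95% interval of -0.11 to 0.82. Cd177 passed once the array set entered the fit as a block (adjusted p = 0.0445), but not under the replicate block (0.302).

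**Figure D2:**
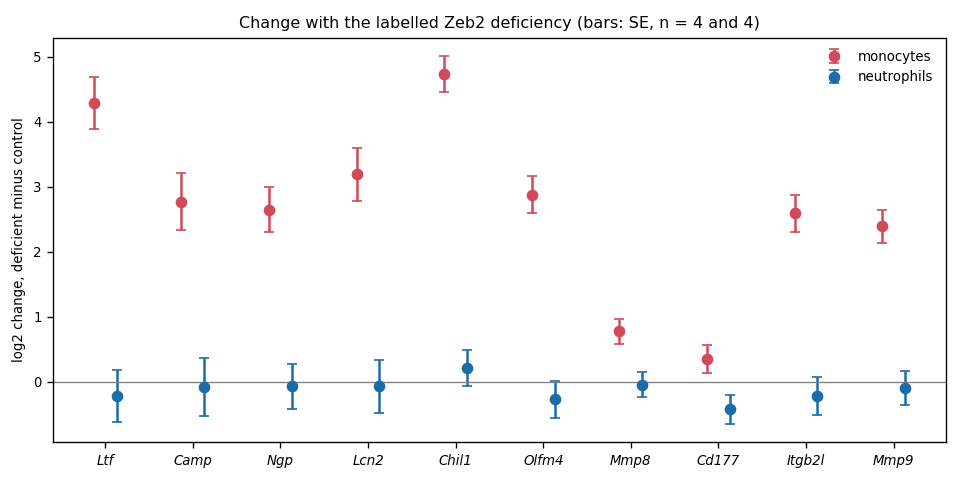
Log2 change from poly(I:C) control to the group labelled Zeb2-deficient (vertical axis) for each of the 10 genes, in monocytes and in neutrophils; points are limma estimates and bars their SE, from 4 and 4 arrays. The monocyte changes lie between 0.35 (Cd177) and 4.73 (Chil1), and the neutrophil changes between -0.42 and 0.21.

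The 2 array sets divided the genes within control monocytes. Camp was 2.43 above set A in set B, Lcn2 2.31, Ltf 2.03 and Ngp 1.85, and for these 4 genes both B arrays lay above both A arrays. Only 0.411% of all genes tested were more than 1 higher in set B there. Both B arrays also lay above both A arrays for Mmp9, by 0.32, and so 5 of the 10 members did so, against 20.5% of all genes. The others moved little or the other way: Itgb2l by 0.52, Chil1 by 0.24, Olfm4 by 0.05, Mmp8 by -0.13 and Cd177 by -0.30. Of 11 primary granule genes tested, 8 had both B arrays above both A arrays in the same controls and 0 the reverse, with a median difference of 0.93 and a range from -0.01 (Ctsc) to 3.39 (Cd63). Among them Mpo (myeloperoxidase) was higher in set B by 2.48 and Elane (neutrophil elastase) by 2.51. Cebpe was higher by 1.18. The neutrophil surface marker Ly6g was higher by 0.62. The part of other cells in these levels was not tested.

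The rise in monocytes was present in both sets, with estimates that differed between them for some genes. Within sets A and B the change was 5.25 and 3.32 for Ltf, 4.30 and 2.09 for Lcn2, 3.79 and 1.75 for Camp, and 3.49 and 1.82 for Ngp, and the set A controls of these 4 genes were the lower ones. It was 1.08 and 0.48 for Mmp8, whose controls averaged 9.93 in set A and 9.80 in set B. It was nearly equal for Chil1 (4.67 and 4.78), Mmp9 (2.45 and 2.34) and Itgb2l (2.40 and 2.78), and it was 2.36 and 3.39 for Olfm4. Each of these genes except Mmp8 passed within each set (limma, 2 arrays a group). Between the sets of deficient monocytes, Olfm4 was higher in set B by 1.08, Itgb2l by 0.90 and Camp by 0.39, Cd177 was lower (-0.29, beside -0.30 in controls), Mmp8 was lower as well (-0.73), while Ltf, Lcn2 and Ngp differed by 0.09 to 0.18. Zeb2 was also lower in set B of the deficient monocytes (-0.70, beside -0.11 in controls). Cebpe was higher there (1.20), by nearly as much as in controls (1.18).

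**Figure D3:**
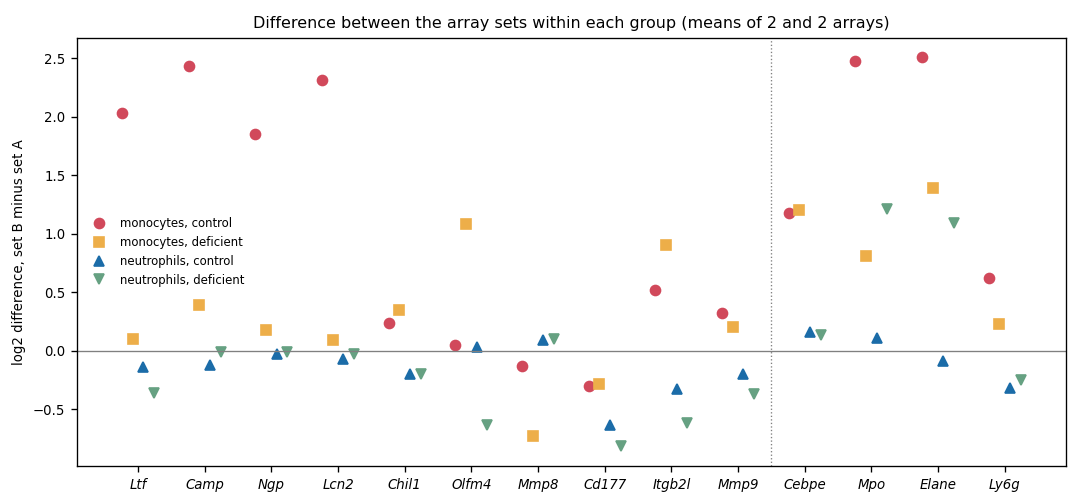
Difference between the array sets (set B minus set A, log2, vertical axis) within each of the 4 poly(I:C) groups, for the 10 granule genes and, right of the dotted line, Cebpe, Mpo, Elane and Ly6g; each point is a difference between means of 2 arrays. In control monocytes Ltf, Camp, Ngp and Lcn2 lie between 1.85 and 2.43, beside Mpo and Elane at 2.48 and 2.51, while the other 6 granule genes lie between -0.30 and 0.52.

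Deficient monocytes were also set beside control neutrophils. The smallest differences in signal were those of Camp, Ngp and Lcn2, whose neutrophil signals lie near the upper end of the scale, so the order of these differences is one of signal and may not be that of the RNA. The arrays were lower in deficient monocytes without overlap for 9 of 10 genes, against 27.3% of all genes, and 7 of 10 were called lower, against 32.1%. Camp, whose arrays overlapped, differed by -0.29 ± 0.44 (SE, adjusted p = 0.578), Ngp by -0.47 ± 0.34 (0.24) and Lcn2 by -0.81 ± 0.41 (0.0937). The wide errors come from 1 variance shared by all groups, to which the spread of control monocytes adds. In a fit of the 2 groups alone Ngp and Lcn2 passed (adjusted p = 0.00262 and 0.000321). Within set A Camp passed as well (-0.54, adjusted p = 0.00677).

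The distance to control neutrophils was largest for the gelatinase gene Mmp9, at -5.11. It was -2.52 for Olfm4, -2.47 for Itgb2l, -1.81 for Mmp8 and -1.66 for Cd177. Chil1 and Ltf, the genes whose signals rose most, were still at -1.27 and -1.26. Mmp9 rose by 2.39, and its control difference from neutrophils was -7.51, whereas Camp rose by 2.77 and its control difference was -3.06. These comparisons share the deficient monocyte and the control arrays with those above.

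**Figure D4:**
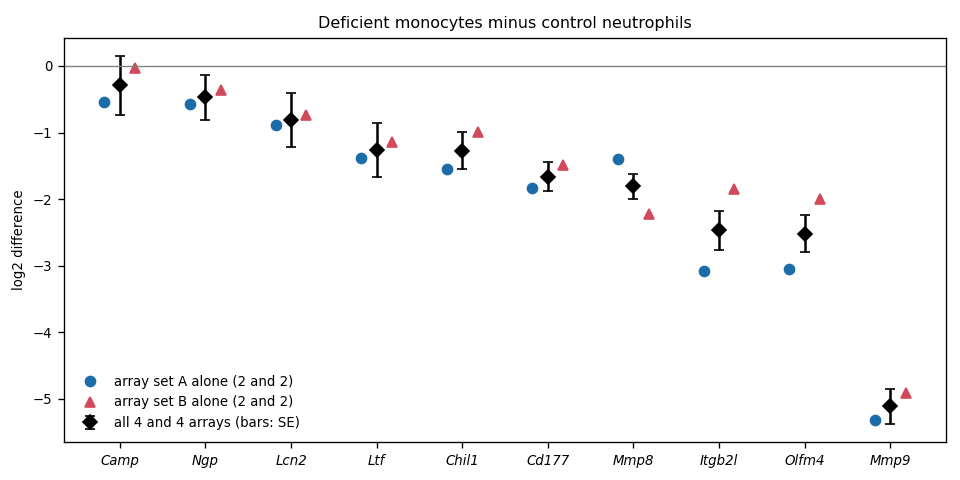
Deficient monocytes minus control neutrophils (log2 difference, vertical axis) for each of the 10 genes, ordered by size; diamonds are limma estimates with SE from 4 and 4 arrays, circles and triangles the values within array sets A and B. The estimates run from -0.29 for Camp to -5.11 for Mmp9.

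Compared with neutrophils of the same genotype, 7 of 10 genes were called lower in deficient monocytes, against 32.1% of all genes tested. Camp (-0.21 ± 0.44 SE, adjusted p = 0.693), Ngp (-0.39 ± 0.34, 0.319) and Lcn2 (-0.74 ± 0.41, 0.122) again did not pass. Ngp and Lcn2 passed with the replicate number as a block (0.0156 and 0.000748) and in a fit of those groups alone (0.0116 and 0.000716). Ltf passed with all arrays (-1.04 ± 0.40 SE, adjusted p = 0.0296), but not without deficient monocyte array 2 (0.0822) or 4 (0.0519), nor without deficient neutrophil array 1 (0.0581) or 2 (0.0691). It passed with the replicate number as a block (0.00102), in those groups alone (0.00065), and within set A (0.000622) and set B (0.0219). Mmp9 was again the most distant, at -5.02 ± 0.26 (SE, adjusted p = 4.27e-11).

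In neutrophils no granule gene passed the test between the genotypes. None of the 10 was called by limma, against 0.12% of all genes tested, and 0 of 10 had an unadjusted p under 0.05, against 5.1% of all genes. The changes ran from -0.42 for Cd177 (adjusted p = 0.989) to 0.21 for Chil1, with a median of -0.09, and the arrays of the genotypes overlapped for all 10 genes. In a fit of the neutrophil groups alone 0 of 10 reached an unadjusted p of 0.05, and the lowest was 0.0523, for Chil1. With the array set as a block 0 were called and 1 of 10 had an unadjusted p under 0.05 (Cd177). Blocking on the replicate number gave 0 called and 3 of 10 under that p (Cd177, Chil1 and Ltf). The 5.1% belongs to the fit of all arrays without a block. No such share is given for the other fits, so their counts have no background beside them.

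Lactoferrin read 12.25, 12.41, 12.15 and 12.23 in control and 12.13, 12.33, 11.93 and 11.80 in deficient neutrophils, a change of -0.22 ± 0.11 (SE of the neutrophil fit, 95% interval -0.45 to 0.02). Lcn2 read 12.85, 12.86, 12.76 and 12.80 in control and 12.76, 12.77, 12.76 and 12.72 in deficient neutrophils, with an interval of -0.18 to 0.05. Camp had an interval of -0.21 to 0.05 and Ngp one of -0.22 to 0.07. These 4 genes lie near the upper end of the scale in neutrophils, so their intervals bound the change in signal and not the change in RNA. The intervals were wider for Cd177 (-0.95 to 0.11), Olfm4 (-0.68 to 0.14) and Itgb2l (-0.58 to 0.14). Cd177 read 10.71, 11.26, 10.34 and 10.35 in control and 10.51, 10.80, 9.81 and 9.86 in deficient neutrophils. The low arrays were those of set B in both genotypes. Each of the 3 pairs with the same number was lower in the deficient array. With the array set as a block the Cd177 change was -0.42 ± 0.11 (SE, 95% interval -0.66 to -0.18, adjusted p = 0.233). Blocking on the replicate number gave -0.38 ± 0.08 (SE, 95% interval -0.55 to -0.21, adjusted p = 0.14). Both intervals lie below 0, and neither value passed the adjustment over all genes tested. Across the 10 genes, 7 had both B arrays below both A arrays in control neutrophils and 7 in deficient neutrophils, against 25.8% and 25.5% of all genes.

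The difference between the cell types was tested directly. The change in monocytes exceeded that in neutrophils for 8 of 10 genes, against 2.17% of all genes tested. It was 4.52 ± 0.40 (SE, adjusted p = 6.29e-06) for Chil1, 4.50 ± 0.56 (0.000187) for Ltf, 3.26 for Lcn2, 3.15 for Olfm4, 2.85 for Camp (adjusted p = 0.0153), 2.81 for Itgb2l, 2.72 for Ngp and 2.49 for Mmp9. Within set A the difference for Mmp9 was 2.46 and did not pass (adjusted p = 0.129). Mmp8 (0.82, adjusted p = 0.13) and Cd177 (0.77, adjusted p = 0.257) did not pass, and both did once the array set was a block (0.0367 and 0.00571). Mmp8 also passed without deficient monocyte array 4 (1.06, adjusted p = 0.00504). Ltf, Camp, Ngp, Lcn2 and Mmp8 lie near the upper end of the scale in neutrophils, where a rise could be compressed. For these genes the difference between the cell types is one of signal and may not be that of the RNA.

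The single untreated controls stayed within the range of the poly(I:C) controls for 10 of 10 genes in monocytes, against 62.1% of all genes, and for 8 of 10 in neutrophils, against 63.1%. In monocytes the untreated array read 6.40 for Ltf, 9.32 for Camp, 9.16 for Ngp and 8.45 for Lcn2, each between the arrays of set A and those of set B. In neutrophils Lcn2 was just above the range (12.87, against at most 12.86) and Mmp8 just below it (12.36, against at least 12.39). With 1 array there is no test.

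Other granule genes were read from lists, and the deficient monocytes did not raise all of them. Of 22 other secondary and gelatinase granule proteins tested, 6 were higher, 1 was lower and the median change was 0.13. The risen were Fcnb (ficolin B) by 3.13, Pglyrp1 (a peptidoglycan recognition protein) by 2.63, Lrg1 by 2.52, Mmp25 (a membrane-bound metalloproteinase) by 1.78, Orm1 by 1.31 and Adam8 by 0.76, while the lysozyme gene Lyz1 fell by 0.67. Fcnb was read at 9.96 in deficient monocytes but at 6.21 in control neutrophils, and Pglyrp1 at 11.09 and 12.30. The other 15 did not pass.

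Primary granule genes rose more uniformly. Of 11 tested, 10 were higher and 0 lower, with a median of 2.36, including Ms4a3 (3.29 ± 0.58 SE, adjusted p = 0.00148), Cd63 (3.15), Elane (2.69) and Ctsg (cathepsin G, 2.67). Elane and Ctsg stood at 10.80 and 9.55 in deficient monocytes and at 4.98 and 4.09 in control neutrophils. Their signals were already higher in control monocytes, at 8.11 and 6.89, than in control neutrophils. Of the 11 genes, 6 were called higher and 3 lower in control monocytes than in control neutrophils. Of 17 granulocyte regulators tested, 4 were higher and 0 lower: Cebpe (2.29 ± 0.32 SE, adjusted p = 0.000177), Myb (2.09), Klf5 (1.93) and Gfi1 (1.10), which represses monocyte genes. Cebpe reached 8.54 in deficient monocytes, against 6.25 in control monocytes and 8.95 in control neutrophils. In the neutrophil contrast 0 genes of these lists were called.

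**Figure D5:**
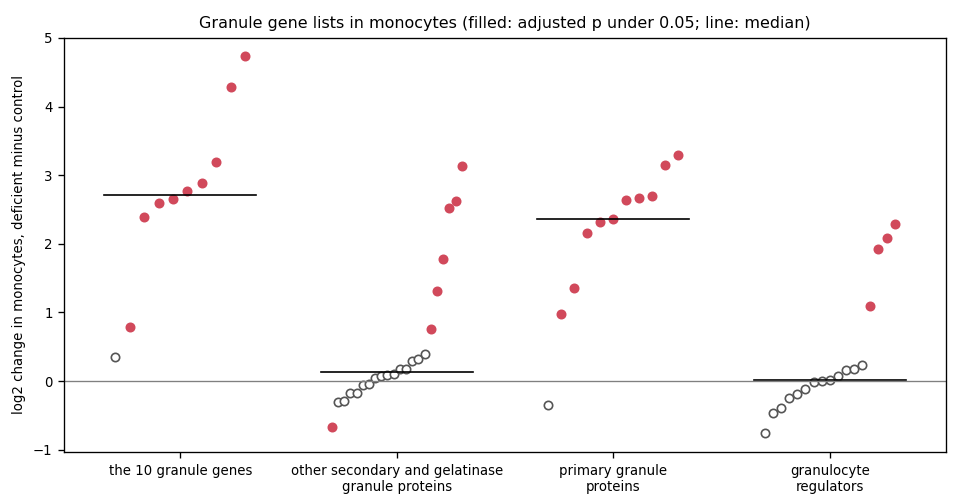
Log2 change in monocytes, deficient minus poly(I:C) control (vertical axis), of each tested gene of 4 lists: the 10 granule genes, other secondary and gelatinase granule proteins, primary granule proteins and granulocyte regulators. Filled points have an adjusted p under 0.05 (limma, over all genes tested) and lines are list medians, which stand at 2.71, 0.13, 2.36 and 0.01.

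Markers of neutrophils moved with the granule genes. Of 11 tested neutrophil markers, 9 were higher in deficient monocytes and 0 lower, with a median of 1.62, led by Retnlg (5.55), Ly6g (5.18 ± 0.22 SE, adjusted p = 5.88e-11), Cxcr2 (3.66) and Il1r2 (2.91). The mean over these markers was 8.04 to 8.84 in deficient monocytes, above every control monocyte array (6.01 to 6.85) and below every control neutrophil array (10.79 to 10.90). Ly6g, at a mean of 3.90, and Il1r2, at 4.17, lay under the 40th percentile in control monocytes, so their changes are lower bounds. None of the neutrophil markers was under the 40th percentile on all monocyte arrays. The Ly-6C(hi) monocyte markers fell in part: 3 of 11 were lower and 0 higher, with a median of -0.76, led by Cx3cr1 (-1.17), Csf1r (-0.87) and Ms4a6c (-0.62). Their mean was 8.93 to 9.83 in deficient monocytes, against 9.93 to 10.11 in controls and 5.04 to 5.21 in control neutrophils. The share of neutrophils or their precursors in the sorted monocytes was not tested.

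Of 47 tested markers of other cells, 6 were higher and 4 lower in deficient monocytes, beside 7.54% of all genes tested called in either direction. Of the eosinophil markers 1 of 5 tested rose (Siglecf, 1.10), of the mast cell and basophil markers 2 of 5 (Kit 2.01 and Hdc 1.35), of the stem and progenitor markers 2 of 7 (Kit and Erg, 1.68) with Flt3 lower (-0.88), of the macrophage markers 1 of 7 (Vcam1, 2.43) with Mrc1 lower (-1.35), and of the dendritic cell markers 1 of 8 (Ccr9, 1.08) with Cd209a (-1.49) and Tcf4 (-0.87) lower. Epx, Ccr3 and Il5ra of the eosinophils, Cpa3, Ms4a2 and Fcer1a of the mast cells and basophils, and Cd79a, Ms4a1 and Ebf1 of the B cells were under the 40th percentile on all monocyte arrays. Of the tested B cell (4), T and NK cell (4), erythroid (4) and megakaryocyte (5) markers, 0 passed. Their part in the granule genes' change was not tested.

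Across the 18 arrays the 10 genes rose and fell together, and each correlated with the members' mean at 0.858 (Cd177) to 0.988 (Itgb2l), a description that mainly reflects the cell types and genotypes, since arrays share those. Each member is also part of that mean, which raises its own correlation. By the same measure, and leaving out the members, the genes closest to the members' mean were Ly6g (0.995), Actn1 (0.994), Cyfip2 (0.994), Syne1 (0.993) and Rflnb (0.992). Actn1 (alpha-actinin 1) read 4.48 in control monocytes, 7.61 in deficient monocytes and 10.28 in control neutrophils, and Syne1 (nesprin 1) read 5.02, 7.86 and 9.99.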

How the data were processed

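RNA was isolated (RNAqueous-Micro), amplified (Ovation PicoSL) and labelled with biotin, as the labels' protocols say. The deposited values are log2 intensities that the authors made per probe set, with RMA named in the submitters' processing notes, and its software and version were not given in the sources used here. Of 30177 probe sets, 21789 name 1 gene, and the one with the highest mean was kept for the 999 genes with several. Genes were tested where 4 or more of the 18 arrays read them above that array's 40th percentile, and no single probe set was compared with another. A group-means model over all 18 arrays was fitted with limma 3.58.1 in R 4.3.3 (variance trend, Benjamini-Hochberg at 0.05), after a check on simulated data. Members, lists and the rule for named genes (all members, Zeb2, Cebpe, Ly6g, up to 4 called genes of a list, the 5 genes most like the members' mean) were chosen with earlier results of these data known. A few list members outside that rule, Orm1, Adam8, Lyz1, Mpo and Ctsc, were named after their values were seen. Array sets were taken from the first principal component (32.1% of variance) of deviations from group means, with the granule and marker lists left out. Arrays of the same number deviated together: control and deficient monocytes at 0.276 to 0.415 and neutrophils at 0.186 to 0.361 (3 pairs each), deficient cell types at 0.119 to 0.244, control cell types at 0.071 to 0.256; pairs of other numbers in the same set did so at 0.118 to 0.332. The number was run as a block in every comparison. Blocked values stand beside the monocyte changes of the 10 genes, and for some genes beside the neutrophil changes and the deficient cell types. Pairing was not checked for deficient monocytes against control neutrophils; the source of the pairing is the titles' numbers and these correlations, not a statement of the labels. The number of arrays limits the precision.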

Additional observations from a re-analysis of the deposited data

Results flagged for a closer look

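The change differed between monocytes and neutrophils, by the test of that difference, for 8 genes: Chil1 (4.52), Ltf (4.50), Lcn2 (3.26), Olfm4 (3.15), Camp (2.85), Itgb2l (2.81), Ngp (2.72) and Mmp9 (2.49), all larger in monocytes. Ltf, Lcn2, Camp and Ngp lie near the upper end of the scale in neutrophils, so for them this is a difference in signal. Among 40 groups of 4 arrays, 1 held an array apart from the others: Ngp in deficient monocyte replicate 2 read 11.64, and its gap to the nearest of the others was 0.86 of the group's whole range, above Dixon's 95% critical value. Chance marks about 1 in 20 groups.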

How the results depend on the processing

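The number of granule genes called was 8 to 10 in monocytes, 0 in neutrophils, 7 to 10 for the difference between the cell types, 10 between control cell types, and 7 to 10 for deficient monocytes against either group of neutrophils, over quantile normalization, no filter, a stricter filter, only the groups compared, no variance trend, the mean over probe sets, the replicate block, and the array sets as a block or alone. Leaving out 1 array at a time gave 9 in monocytes, 0 in neutrophils, 8 to 9 for the difference, 10 between controls, 6 to 7 and 7. Of 600 changes of single genes under the other settings, 572 kept their direction and side of the threshold. In neutrophils the change of Olfm4 was 0.0597 in array set A alone, that of Mmp8 was 0.00629 with quantile normalization, and that of Mmp9, leaving out 1 array at a time, ran from -0.17 to 0.023, the latter without deficient replicate 3. All 3 were below 0 with all arrays; none passed, and the cause was not tested. With the replicate block 8 members were called in monocytes; it changed no call of a member other than those of Mmp8 and of Ngp and Lcn2 against either group of neutrophils (adjusted p = 0.0184 and 0.00327 against control neutrophils, where pairing was not checked). Counts over all genes moved more: in monocytes 684 genes were higher and 326 lower with all arrays, 184 and 34 with the replicate block, 1016 and 732 with the array set as a block, 397 and 103 in the monocyte groups alone, 192 and 23 within set A, 1010 and 714 within set B, and 1050 and 951 without deficient replicate 2. In neutrophils the 14 higher and 2 lower became 23 and 4 with the set block, 8 and 1 in the neutrophil groups alone and 3 and 0 in set A. For the difference, 290 and 69 became 529 and 199 with the set block, 180 and 43 with the replicate block, 68 and 4 in set A and 492 and 239 in set B. Mmp9 and Olfm4 in control monocytes lie at the edge of low signal, which limits their changes.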
